A study of Mus musculus with 3 samples.

Results

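Stretches of the genome between protein-coding genes, near a gene but outside its ends, on which HDAC3 and KLF4 were both precipitated from mouse embryonic epidermis are described here. The members were chosen by their called peaks: a member is an HDAC3 peak that shared at least 1 base with a KLF4 peak (all peaks have the same width, so this is a limit on the distance between their centres), outside the span of every protein-coding gene, and more than 1 kb and at most 50 kb from the nearest end of one (mouse genome GRCm38). A total of 4594 of the 57920 HDAC3 peaks on chromosomes met this rule, which is 7.93% of them. A KLF4 peak overlapped 25.8% of all HDAC3 peaks (14962), and 30.7% of these (95% interval 30.0 to 31.5) were members. The rule used the called peaks of both factors, so the scores, folds and overlaps of the members are given as a description, with no test.

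The chromatin was from the dorsal epidermis of wild-type mice taken as embryos, at E18.5. The series holds 3 libraries: 1 precipitated with the HDAC3 antibody Abcam ab7030, 1 precipitated with the KLF4 antibody R&D AF3158, and 1 input library with no antibody. All 3 share tissue, age and genotype, and there was 1 library per antibody, so no spread between replicates exists and no difference is tested. Each interval of a percentage is a 95% interval by the exact Clopper-Pearson method. It covers counting error alone, and PCR copies are not independent molecules.

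HDAC3 is a histone deacetylase that gains its activity within the NCoR and SMRT corepressor complexes and is brought to DNA by transcription factors, since it does not read DNA sequence itself. KLF4 is a zinc finger factor that recognises GC-rich and CACCC-type sequences and is required in mouse skin for the outermost layers to form a barrier. Peaks between genes are commonly regulatory elements that act at a distance, and the nearest gene, used below as a name for each peak, need not be the gene that an element acts on.

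Sequence was at hand for the few members that fall in the start window of a noncoding gene (250 bases before to 50 bases after the start, RefSeq, GRCm38.p6): 43 members had at least 100 of their bases in such a window and 17 lay wholly inside one. The sequences below, chosen after their values were seen, show strong examples of these members, among them some near epidermal genes, 7 with a match to at least 1 of the 2 motifs the text turns on, and 1, near Lelp1, with neither. Of the 43 members, 22 had neither motif in the bases covered, some of them taller for HDAC3 than several printed here. Each is named by the nearest protein-coding gene, with the coordinates of the bases printed and the noncoding RNA whose start window holds them. All are written 5′ to 3′ on the plus strand, and capitals mark matches on either strand to the KLF core CCNCNCCC or to the AP-1 motif TGANTCA.
Prdm1 (chr10:44428135-44428238, Gm35028 start): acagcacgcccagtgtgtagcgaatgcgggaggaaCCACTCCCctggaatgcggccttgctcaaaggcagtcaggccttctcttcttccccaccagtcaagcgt
Sdr9c7 (chr10:127925187-127925358, Gm40804 start): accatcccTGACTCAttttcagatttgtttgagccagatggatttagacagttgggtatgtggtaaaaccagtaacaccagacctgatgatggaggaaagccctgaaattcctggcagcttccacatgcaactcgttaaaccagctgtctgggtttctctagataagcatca
Mrpl33 (chr5:31596787-31596971, Gm38424 start): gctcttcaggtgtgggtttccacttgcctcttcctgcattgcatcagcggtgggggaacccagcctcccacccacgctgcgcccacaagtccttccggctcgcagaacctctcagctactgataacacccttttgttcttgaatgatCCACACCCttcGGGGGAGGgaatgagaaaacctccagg
Axin2 (chr11:108911051-108911209, Gm46298 start): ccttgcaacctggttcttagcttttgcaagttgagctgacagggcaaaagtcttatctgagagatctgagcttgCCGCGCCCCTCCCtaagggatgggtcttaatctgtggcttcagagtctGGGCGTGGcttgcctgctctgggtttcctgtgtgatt
Emp2 (chr16:10331273-10331457, Gm1600 start): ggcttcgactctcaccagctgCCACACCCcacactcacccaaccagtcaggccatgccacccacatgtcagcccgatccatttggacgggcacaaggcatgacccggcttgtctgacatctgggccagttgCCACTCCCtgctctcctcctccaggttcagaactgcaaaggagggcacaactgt
Plek2 (chr12:78910796-78910980, Gm46359 start): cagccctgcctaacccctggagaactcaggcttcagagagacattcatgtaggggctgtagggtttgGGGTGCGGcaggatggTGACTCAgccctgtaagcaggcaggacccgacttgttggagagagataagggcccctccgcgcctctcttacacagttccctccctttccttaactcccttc
Ube3c (chr5:29699878-29700062, Gm42245 start): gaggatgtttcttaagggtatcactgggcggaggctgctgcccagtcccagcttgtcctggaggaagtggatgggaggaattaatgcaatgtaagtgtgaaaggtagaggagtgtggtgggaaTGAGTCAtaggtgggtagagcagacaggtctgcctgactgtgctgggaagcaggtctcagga
Lelp1 (chr3:92169937-92170121, Gm35439 start): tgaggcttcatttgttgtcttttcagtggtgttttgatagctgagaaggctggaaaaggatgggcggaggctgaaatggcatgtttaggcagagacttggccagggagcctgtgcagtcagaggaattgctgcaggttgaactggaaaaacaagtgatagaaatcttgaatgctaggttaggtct

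The Prdm1 member is the strongest with sequence. Its HDAC3 score was 179 and its KLF4 score 528. The only KLF core in the 104 printed bases lay 53.5 bp from the HDAC3 centre and 30.5 bp from the KLF4 centre. Prdm1 encodes Blimp1, a repressor needed for late differentiation of epidermal cells. At Axin2, a feedback inhibitor of Wnt signalling, the HDAC3 score was 76 and the KLF4 score 450. The stretch holds 3 matches to the KLF core, the nearest of them 1.5 bp from the KLF4 centre. The member near Sdr9c7, a dehydrogenase of the skin lipid barrier, has scores of 159 and 358 and 1 AP-1 match, 68 bp from the HDAC3 centre, and no KLF core in the bases covered. The Lelp1 member, in the gene cluster of cornified envelope proteins, has scores of 73 and 280 and neither motif. The Plek2 member has both motifs, a KLF core 21.5 bp and an AP-1 match 6 bp from the HDAC3 centre, with scores of 67 and 200.

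Over the 17 members that lie wholly in a window, 9 held the KLF core (52.9%, interval 27.8 to 77.0) and 5 held the AP-1 motif (29.4%, 10.3 to 56.0). The other shared peaks wholly in a window numbered 279, of which 49.1% held the KLF core and 14.7% the AP-1 motif. HDAC3 peaks without KLF4 numbered 171 there and held them in 27.5% and 10.5% of cases. A stretch as long as a peak in the middle of all 32851 start windows held the KLF core in 40.7% and the AP-1 motif in 5.15%, and those of noncoding RNA windows in 28.1% and 6.08%. The intervals of the 17 members are wide: the one for the KLF core contains the shares of the other shared peaks, of all start windows and of noncoding starts, and its lower end lies just above the share of the peaks without KLF4. The AP-1 interval of the members lies above the shares over all start windows and over noncoding starts and contains those of the other peaks. All 15 motifs were searched on both strands. Those of KLF factors were CCNCNCCC and the shorter, partly overlapping CACCC. The AP-1 motif is given above. The motif used for the GRHL family was AACNGGTT or AACCNGTT. For the GATA family it was the word AGATAA, and for TEAD factors the word GGAATG. C/EBP factors were searched with TTGCNNAA and AP-2 factors with GCCNNNGGC. The ETS family was searched with the word CCGGAAG, and the RUNX family with the word TGTGGTT. Nuclear receptors were searched with the word AGGTCA, and E-box factors with the word CACGTG. CTCF was searched with a long motif and with the shorter AGGGGGC inside it, and p63 with its paired motif. In the 17 members the other motifs were found 2 times for GRHL (11.8%; 3.23% of the other shared peaks and 1.36% of all start windows), 4 times for nuclear receptors (23.5%; 11.5% and 10.6%), and 3 times each for GATA (17.6%; 9.68% and 7.22%), TEAD (17.6%; 13.98% and 9.45%) and p63 (17.6%; 11.8% and 9.97%). By class, the GRHL motif was in 4 of the 12 shared peaks beyond 50 kb (33.3%), 0 of the 56 inside genes and 2.37% of the 211 at gene ends. C/EBP, AP-2 and ETS motifs were in 2 members each (11.8%), against 6.97%, 11.01% and 5.61% of all start windows. RUNX and E-box motifs were in 1 each (5.88%), against 3.24% and 4.85%, and neither CTCF motif was in any, which allows a share of up to 19.5%. For these motifs, the interval of the members contained the shares of the other shared peaks and of the peaks without KLF4 in every case, and that of all start windows in every case but GRHL, whose lower end was 1.46%. A match is a description of the letters, and these 17 are the members at noncoding RNA starts, not a sample of all 4594.

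The HDAC3 library held 56787485 tags, with 3.95% in its peaks, and the KLF4 library 61432711 tags, with 6.81%. Of the putative peaks the caller examined, 18.4% were called for HDAC3 and 22.9% for KLF4. The precipitations were scaled down to the size of the input, and an average member had 4.19 input tags under its HDAC3 peak, so the fold over input of a single peak is imprecise. The score is the caller's own number for a peak and is the authors' value, used to describe and rank within a list. It differs from the tags under the peak and is not on a common scale for HDAC3 and KLF4. The Cdh3 member described below scored 245 for HDAC3 and 390 for KLF4, with scaled tags of 187.9 and 192.3.

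The members were strong HDAC3 peaks by score. Their median HDAC3 score was 44 (quartiles 31 and 62, lowest 16, highest 245), against 22 over all HDAC3 peaks. The median score of their KLF4 peaks was 98 (quartiles 60 and 168, highest 775), against 65 over all KLF4 peaks. Over input they were enriched a median of 7.18-fold for HDAC3 and 11.8-fold for KLF4. By HDAC3 fold they were close to the HDAC3 peaks without KLF4 at the same distances from genes, whose median was 6.69-fold. The median input under the HDAC3 peak was 4 tags at the members and 2 tags at those peaks. In the highest 10% of HDAC3 scores were 36.0% of the members (1653, interval 34.6 to 37.4). This was close to the 33.6% of all shared peaks and the 35.8% of shared peaks at gene ends. Both scores were in the highest 10% of their lists at 846 members.

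**Figure D1:**
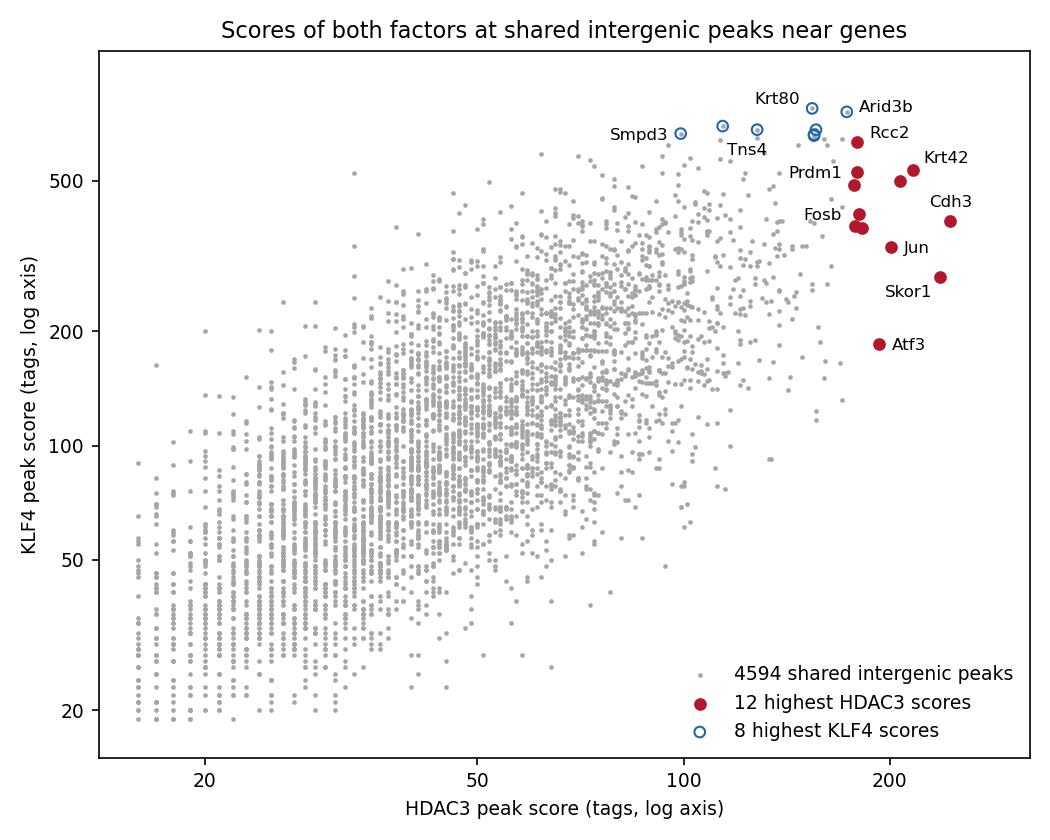
Each point is 1 of the 4594 shared intergenic peaks, with its HDAC3 score across and its KLF4 score upward, both on log axes. The scores are the caller's own numbers and differ from the tags under a peak. Red points are the 12 highest HDAC3 scores and open blue circles the 8 highest KLF4 scores. Scores rise together over the cloud, the Cdh3 peak lies farthest right at 245 and the Krt80 peak highest at 775, and the Atf3 peak sits lowest of the red points.

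Across members the 2 scores had a Spearman correlation of 0.72 (4594 peaks of the same 2 libraries and the same input, so this is a description). The ratio of KLF4 to HDAC3 tags, each normalised to the same depth, had a median of 0.66 on the log2 scale, with quartiles 0.17 and 1.23 and a range from -1.81 to 3.75. HDAC3 tags were the higher of the pair at 821 members (17.9%). The centres of the 2 peaks were a median of 31 bp from each other (quartiles 14 and 60); 68.2% were within 50 bp and 40 shared the same base.

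Next to the other shared peaks, the members stood close to those at gene ends in HDAC3 score and a little higher than all 3 classes in median KLF4 score. The median HDAC3 score was 45 at the 1653 shared peaks within 1 kb of a gene end, 42 at the 6598 inside genes and 40 at the 2117 farther than 50 kb from a gene. The corresponding KLF4 medians were 92, 93 and 82, against 98 for the members. Quartiles of all 4 classes overlap broadly, as the plot of scores by class shows. HDAC3 peaks at the same distances from genes but without KLF4 numbered 11105 and had a median HDAC3 score of 20. A member had to pass a calling limit in both libraries, so this gap belongs to the rule and is no finding.

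**Figure D2:**
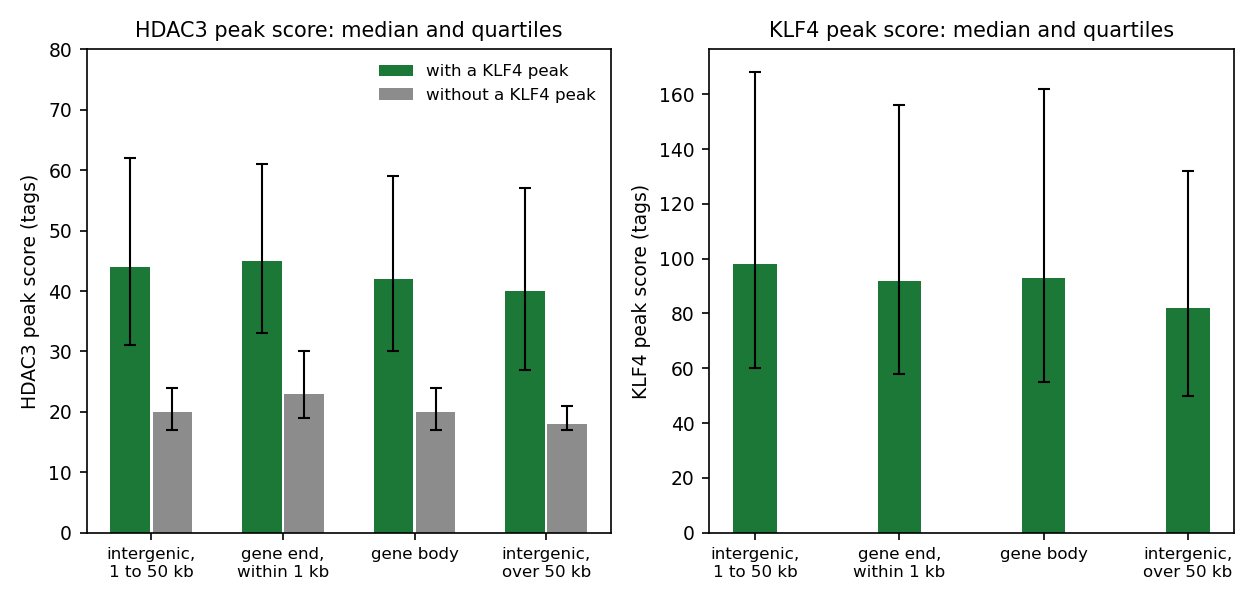
Bars are median peak scores and whiskers the quartiles over peaks, for 4 positions relative to protein-coding genes. A score is the caller's own number and differs from the tags under a peak. The left panel shows HDAC3 scores with and without a KLF4 peak, and the right panel the KLF4 score at shared peaks. The median HDAC3 score is 44 with and 20 without KLF4 at intergenic peaks 1 to 50 kb from a gene, and the KLF4 median there, 98, is the highest of the 4 classes.

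The share with KLF4 followed the height of the HDAC3 peak. This restates the gap in HDAC3 score given above and is a description, not a test. Its intervals count peaks of 1 library per antibody as independent. Among intergenic HDAC3 peaks 1 to 50 kb from a gene, a KLF4 peak was present at 86.6% in the highest 10% of HDAC3 scores (1653 of 1909; 85.0 to 88.1). The share was 72.0% in the next 10%, 47.7% in the third, 26.2% in the fourth and 11.7% in the fifth, and 2.18% in the lowest (30 of 1377). The median distance between the 2 centres was 24 bp in the highest 10% and 32 bp in the next. Below these it lay between 36 and 45 bp with no steady trend, apart from 52.5 bp in the lowest 10%, which held 30 members. By score, few members were close to the calling limits. An HDAC3 score within 4 of the limit of 16 was found at 238 (5.18%), compared with 44.4% of all HDAC3 peaks. A KLF4 score within 4 of its limit of 19 was found at 69 (1.5%). The caller also required 4-fold over input, and by fold more members were near the limit. The lower quartile of their fold was 5.32 for HDAC3 and 7.46 for KLF4, and 1671 of the 4594 remained with both peaks at least 8-fold over input.

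The share also differed by position. KLF4 accompanied 29.3% of HDAC3 peaks in this class (28.6 to 30.0), 40.9% at gene ends, 24.7% inside genes and 18.51% beyond 50 kb. Seen from the KLF4 list, the shares with HDAC3 were nearly level: 33.8% of the 13590 KLF4 peaks of this class, 32.6% at gene ends, 30.2% inside genes and 32.0% beyond 50 kb.

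Peaks on either side of each limit of the rule are given once. At the limit on the distance between centres, the peaks near Adora1 and Fto shared a single base with KLF4 (HDAC3 scores 34 and 35, KLF4 scores 121 and 90). The closest peaks left out, near Tulp1 and Tmem131l, had centres 187 bp from KLF4 (64 and 38, 476 and 92). At the 50 kb limit, members lay 49986 bp from Atrnl1 (26 and 62) and 49954 bp from Usp38 (42 and 145). Peaks left out lay 50041 bp from Elovl4 (60 and 177) and 50068 bp from Pgrmc2 (51 and 94), each pair giving the HDAC3 and then the KLF4 score. At the 1 kb limit, members lay 1001 bp from Zfp148 (48 and 108) and 1002 bp from Arpc2 (20 and 200), and peaks left out lay 999 bp from Zfp326 (39 and 138) and 994 bp from Slc11a1 (45 and 58).

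The strongest member, which is also the strongest HDAC3 peak of the list, lay at chr8:106563980-106564164, 7161 bp outside Cdh3, the P-cadherin gene, and 39278 bp from the E-cadherin gene Cdh1. With both precipitations scaled to the size of the input, it held 188 HDAC3 tags and 192 KLF4 tags over 4 and 5 input tags. The precipitations were thus level with each other and far above the input, 47.0-fold for HDAC3 and 38.5-fold for KLF4. A second member of the same locus was nearest to Cdh1 itself, 21782 bp from it, with scores of 102 for HDAC3 and 356 for KLF4 and with 63.6 HDAC3, 183.7 KLF4 and 13 input tags.

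Keratin genes, which encode the intermediate filaments of epidermal cells, were nearest to 1 of the 12 members with the highest HDAC3 scores and to 2 of the 8 with the highest KLF4 scores. The member 19198 bp upstream of Krt42 scored 216 for HDAC3 and 534 for KLF4, with 160 HDAC3, 295 KLF4 and 20 input tags. It had the most input tags of the 12 highest members, and its fold over input was correspondingly low, 7.98 for HDAC3. Krt80 was nearest to the member with the highest KLF4 score of all, 775 with an HDAC3 score of 154, at chr15:101327432-101327616. Its tags were 106 for HDAC3, 577 for KLF4 and 6 in the input under either peak. A second Krt80 member, 17022 bp outside the gene, scored 114 and 696. Near Krt1, a keratin of the spinous layer, a member 10297 bp outside the gene scored 139 and 391 and one at 1982 bp scored 90 and 194. Near Krt14, the basal layer keratin, 1 member lay 14607 bp upstream with scores of 97 and 233. Krt5 and Krt15 of the basal layer and Krt2 of the upper layers had no member. KLF4 tags exceeded HDAC3 tags at all 6 of these keratin members. That is the usual direction, since HDAC3 tags were the higher at 17.9% of all members. The 2 Krt80 members among the 6 were named for their high KLF4 scores. Another Krt80 member, 8625 bp outside the gene, had the opposite balance (72 and 77, log2 ratio -0.49).

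Genes of the AP-1 family and other immediate early genes, which cells switch on within minutes of a stimulus, were nearest to 3 of the 12 members with the highest HDAC3 scores, at Jun, Atf3 and Fosb, and to 1 of the 8 with the highest KLF4 scores, at Fosl2. At Jun, a member 23479 bp upstream (chr4:95075609-95075793) scored 201 and 334, with 141 HDAC3, 163 KLF4 and 4 input tags. Another at 16294 bp upstream scored 136 and 331, and the third at 24344 bp scored 105 and 148. All 3 Jun members lay upstream, and at the last of them HDAC3 and KLF4 tags were level. At Atf3, a stress-induced factor of the same dimerising class, the member 10494 bp upstream had an HDAC3 score of 193, with 135 HDAC3, 85.5 KLF4, and 7 and 13 input tags under the HDAC3 and the KLF4 peak. Its peaks were 131 bp apart, and HDAC3 tags were the higher, with a log2 ratio of -0.66. Fosb had a member 12513 bp upstream with scores of 180 and 408 and one at 6903 bp with 88 and 115.

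The Fos gene had 7 members. They lay 34417, 32133, 23862, 22137, 21415 and 13923 bp upstream and 12986 bp downstream of the gene. In that order their HDAC3 scores were 81, 72, 149, 155, 138, 83 and 75, and their KLF4 scores 226, 150, 171, 386, 257, 170 and 136. The 3 tallest for HDAC3 were neighbours, between 21 and 24 kb upstream. The member at 23862 bp had its HDAC3 and KLF4 peaks on the same base, with 98.9 HDAC3, 81.9 KLF4 and 7 input tags. All 7 scored above the member median of 44 for HDAC3 and of 98 for KLF4.

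**Figure D3:**
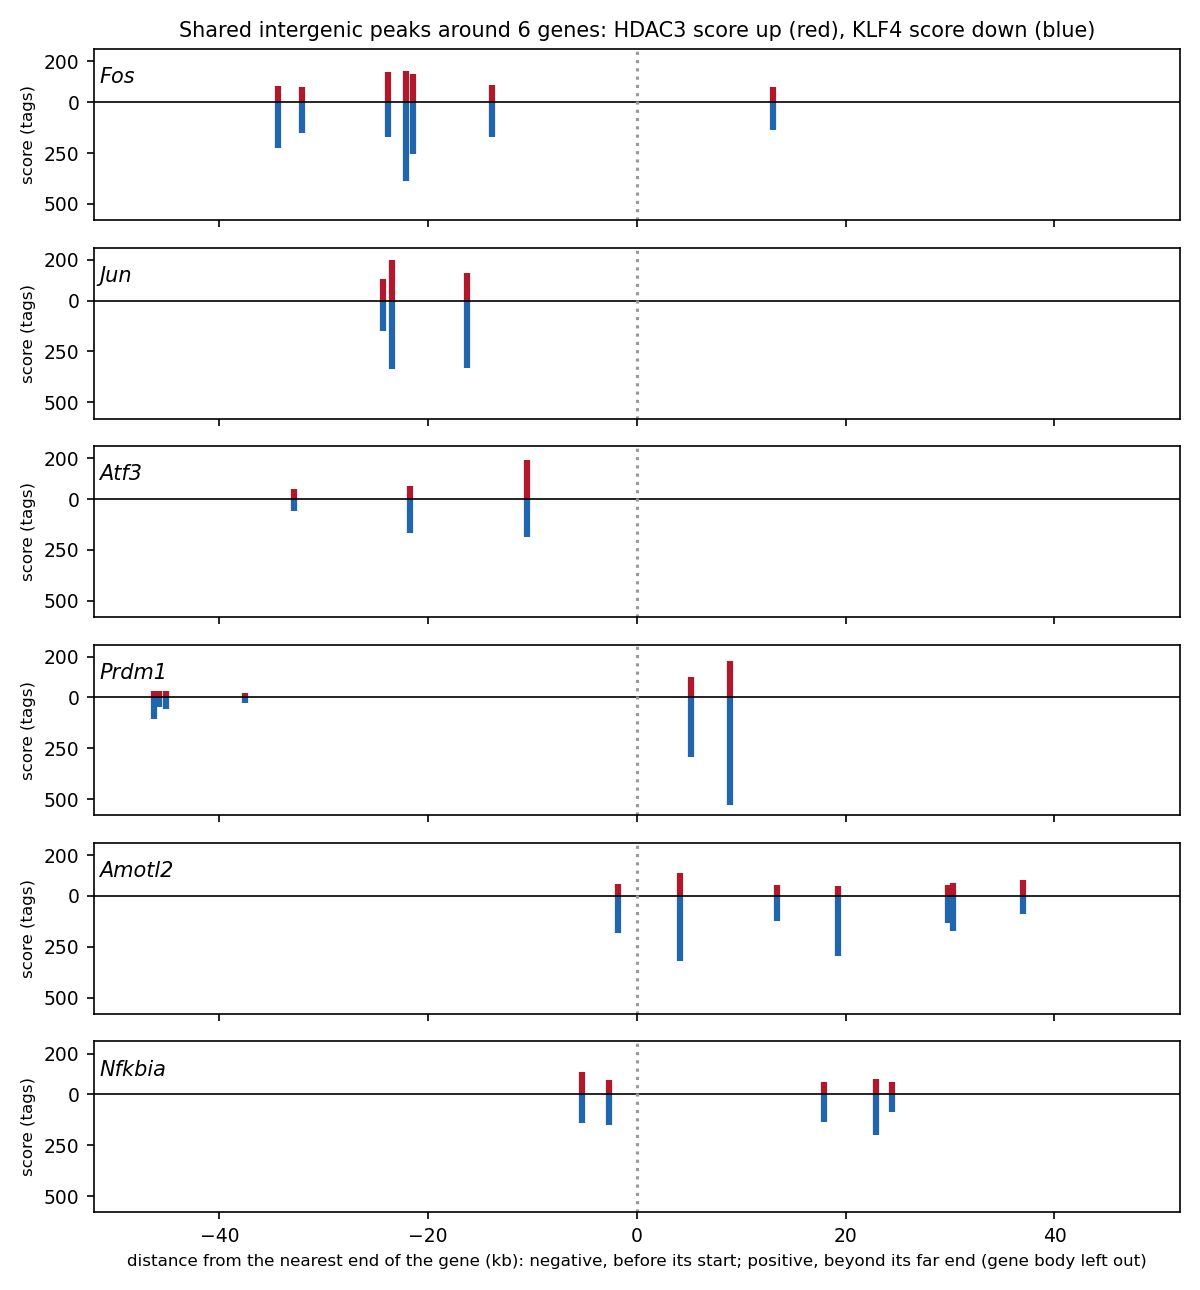
Shared intergenic peaks nearest to 6 genes, placed by their distance in kb from the closer gene end (negative upstream of the start, positive downstream). The gene body is left out. The HDAC3 score is drawn upward in red and the KLF4 score downward in blue, with the same numeric scale. The heights of HDAC3 and KLF4 cannot be compared with each other, since a score is used within its own list only. At the Fos peak 23862 bp upstream the scores were 149 and 171, but the scaled tags were 98.9 for HDAC3 and 81.9 for KLF4. Fos has 6 of its 7 peaks upstream, Jun and Atf3 all 3, and the tallest Prdm1 pair, 179 and 528, lies 8947 bp downstream.

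Other genes gathered several members. Among the 3146 nearest genes, 2184 had 1 member, 633 had 2, 223 had 3, 70 had 4 and 36 had 5 or more. Btbd3, a BTB domain gene known for its part in shaping neuronal dendrites, had the most, 8, with HDAC3 scores from 19 to 75 and KLF4 scores from 35 to 210. Its next neighbour genes lie over 1 Mb away from these members. Amotl2, an angiomotin family gene of cell junctions and YAP control, had 7, with HDAC3 scores from 51 to 114. Sh3d19, an SH3 adaptor, had 7 (29 to 112), as did Septin5, a septin GTPase (23 to 91). Prdm1 had 6: the pair 5204 and 8947 bp downstream scored 102 and 179 for HDAC3, and the 4 between 37587 and 46310 bp upstream scored 21 to 33. Of 4 genes with 6 members, Plekhf2 had the lowest summed score and is not described. The small GTPase gene Arl4c had 6 (40 to 69) and the tumour suppressor gene Rassf10 had 6 (29 to 67). The summed HDAC3 score of these 8 genes was highest at Fos, with 753, then 464 at Amotl2 and 399 at Prdm1. These genes also had more room: genes with 5 or more members were nearest to a median of 66.4 kb of the sequence 1 to 50 kb outside genes, against 39.8 kb for all genes with a member and 17.0 kb for all protein-coding genes.

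The remaining members chosen for a high score were near genes of varied function. By HDAC3 score they included Skor1, a transcriptional corepressor gene (237 and 279), Rnf44 (182 and 374), Rcc2, a mitotic regulator (179 and 632), Rbx1, a cullin ligase subunit (178 and 379), and Abcb9, a lysosomal peptide transporter (177 and 486). By KLF4 score they were Arid3b, an ARID family DNA-binding gene (759 with an HDAC3 score of 173), Tns4, a focal adhesion tensin (681 and 128), Rhbg, an ammonium transporter (681 and 156), Smpd3, a neutral sphingomyelinase (665 and 99), Fosl2 of the AP-1 family (661 and 155) and Ttk, a mitotic checkpoint kinase (657 and 155). The member near Arid3b had the best ranks on both scores together, with 119 HDAC3 tags, 489 KLF4 tags, and 9 and 8 input tags. Acbd3, H3f3a and Rnf208 completed the 8 best by joint rank, with HDAC3 scores of 170, 160 and 162 and KLF4 scores of 645, 644 and 619. The Acbd3 and H3f3a members lie between the same pair of genes, on chromosome 1.

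The highest folds over input came from members with little input. Among members with at least 2 input tags, Hsf2bp led with 58.0-fold for HDAC3 (116 HDAC3 and 2 input tags; score 131). Ergic1 followed Cdh3 with 44.0-fold and Cfap58 with 42.3-fold, each also over 2 input tags. Tbc1d31, Tmcc3, Dbi and Rnf44 lay between 36.0-fold and 40.1-fold over 2 to 4 input tags. A fold over so few input tags is imprecise.

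The balance of the 2 factors varied widely even among the tallest HDAC3 peaks. The extremes of the KLF4 to HDAC3 tag ratio in the highest 10% of HDAC3 scores were picked after the values were seen. Lowest were members near Traf3ip2 (HDAC3 score 64, KLF4 score 26, log2 ratio -1.81), Slc7a1, a cationic amino acid transporter (94 and 48, -1.72), Cers4, a ceramide synthase (58 and 28, -1.51), Sparc, a matrix protein (73 and 38, -1.49), and Hmox1, haem oxygenase 1 (102 and 63, -1.46). Highest were members near Foxo3, a forkhead factor (62 and 586, 3.07), Acap2 (70 and 579, 2.89), Ybx3, a cold shock domain protein (58 and 464, 2.87), and Tmcc2 (76 and 518, 2.78). At Foxo3 the scaled tags were 40.1 for HDAC3 and 336 for KLF4 with 10 input tags under each peak, and at Slc7a1 they were 70.0 and 21.3 with 6 and 4 input tags.

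Members thinned out with distance from genes. Their density in the sequence between genes was 9.68 per Mb at 1 to 5 kb from a gene end, 8.37 at 5 to 10 kb, 7.56 at 10 to 20 kb and 5.90 at 20 to 50 kb. HDAC3 peaks without KLF4 changed less, from 19.8 to 16.3 per Mb over the same range. The share of HDAC3 peaks with KLF4 was 32.9% nearest to genes (31.3 to 34.5) and 26.5% at 20 to 50 kb (25.4 to 27.7). These intervals count peaks of 1 library per antibody as independent, and the difference was not tested. The median distance of a member to its nearest gene end was 12209 bp (quartiles 5274.5 and 24369 bp). The median scores were lower farther out: 46, 45, 43 and 43 for HDAC3 and 108, 101, 96 and 93 for KLF4 over the 4 distances.

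The strand was known for 79.9% of protein-coding genes. Of the 3560 members nearest to such a gene, 59.4% (57.8 to 61.1) lay on the side of its start. The sequence between genes itself was on the start side for 54.0% of its bases, and HDAC3 peaks without KLF4 for 55.4% (54.3 to 56.4). The density of members was 8.02 per Mb upstream of genes and 6.42 per Mb downstream, and that of HDAC3 peaks without KLF4 18.2 and 17.2. Upstream and downstream densities of members were 9.71 and 9.0 per Mb at 1 to 5 kb and 6.60 and 4.79 at 20 to 50 kb. For HDAC3 peaks without KLF4 they were 17.99 and 21.2 at 1 to 5 kb and 17.0 and 15.4 at 20 to 50 kb, so nearest to genes these peaks were denser downstream.

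**Figure D4:**
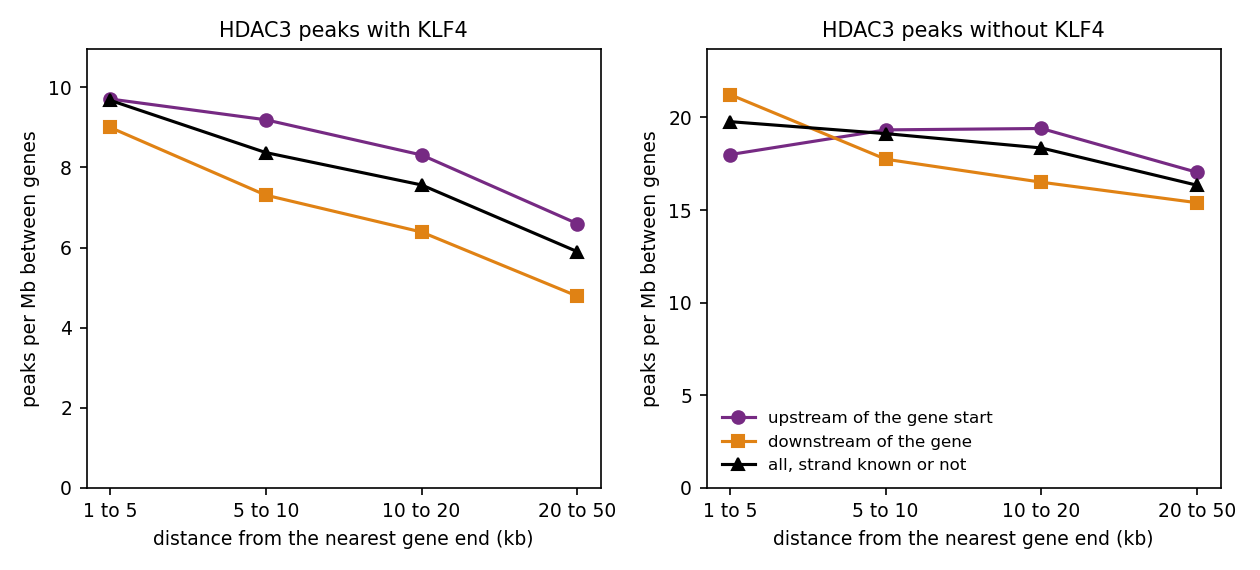
Density of intergenic HDAC3 peaks in peaks per Mb of sequence between genes, by distance in kb from the nearest protein-coding gene end, with a KLF4 peak (left) and without one (right; the vertical scales differ); circles are upstream of the gene start, squares downstream and triangles all sequence. With KLF4 the density over all sequence falls from 9.68 to 5.90 and lies higher upstream at every distance, and without KLF4 it goes from 19.8 to 16.3.

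The nearest gene was not always a clear choice. For 32.6% of members (31.2 to 34.0) a second gene lay at most 2 times as far away, and 59.7% had another protein-coding gene within 50 kb. Members were also near each other: 3.29% had another member within 1 kb and 31.3% within 10 kb, so they are not independent of one another. On single chromosomes the members made up between 26.8% (chromosome 19) and 35.3% (chromosome 3) of shared peaks, with chromosome X at 33.3% (75 of 225); chromosome Y had 1 shared peak, which was not a member.

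Genes near a member had a peak at their own ends in a larger share than genes with no member, and 56.8% had none. Of the 3146 genes nearest to at least 1 member, 27.3% had an HDAC3 peak within 1 kb of either end, against 18.9% of all 21887 protein-coding genes. For KLF4 the shares were 32.4% and 23.1%, and for either factor 43.2% (41.5 to 45.0) and 31.7%. Genes with no member had a peak of either factor at an end in 29.8% of cases. The other 1786 genes with a member, 56.8%, had neither factor at an end, against 68.3% of all protein-coding genes and 70.2% of genes with no member. Prdm1, Dusp1, Cebpb, Il1b and Arid3b were in this last group, while Fos, Jun and Atf3 had both factors at an end.

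Which genes lie near the members was described with 17 gene lists, of which 360 genes in all were in the gene table. Over all protein-coding genes, 14.4% were nearest to at least 1 member. For comparison, 30.2% were nearest to at least 1 intergenic HDAC3 peak without KLF4 at the same distances, and 24.1% to a KLF4 peak without HDAC3. The lists share some genes, such as Cdh3, Cebpb and Fosl2, and a total of 159 of the 360 genes were nearest to a member. No enrichment was tested. The lists also differ in room: their genes were nearest to a median of 58.3 kb of intergenic sequence 1 to 50 kb outside genes for epidermal transcription factors, 55.7 kb for placodes, 55.6 kb for epidermal growth factor genes, 38.2 kb for immediate early genes, 35.4 kb for the spinous layer, 27.6 kb for junctions, 26.9 kb for inflammation, 22.2 kb for barrier lipids, 18.8 kb for the basal layer and 14.1 kb for cornified genes, against 17.0 kb for all protein-coding genes. A share is not corrected for this. With both peaks at least 8-fold over input, 94 in place of 159 list genes had a member, and with every annotated gene counted 105.

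**Figure D5:**
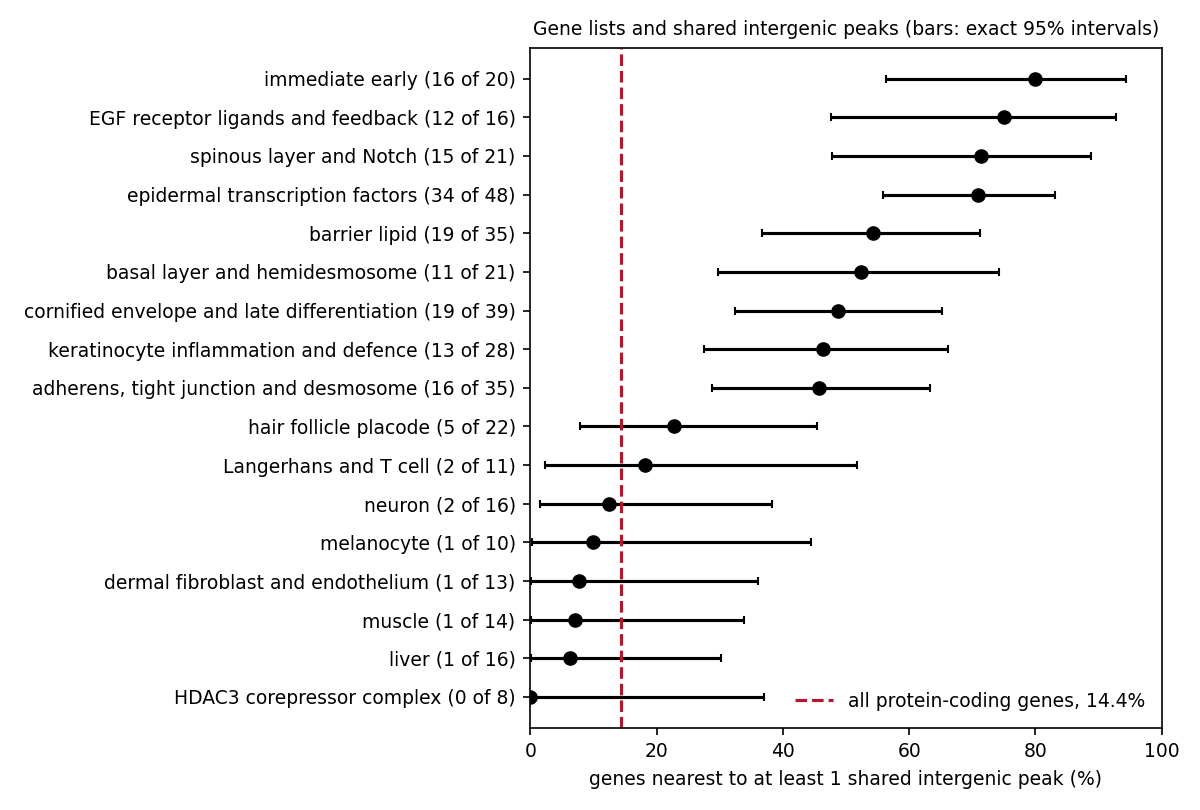
Share of the genes of each list, in percent, that are nearest to at least 1 shared intergenic peak, with exact 95% intervals as bars and the counts beside each name; the dashed line is the share over all protein-coding genes, 14.4%. The immediate early list is highest at 80%, 9 lists lie above 45%, and the other 8 lie at 22.7% or below. The lists were chosen with earlier results of these data known. Shares are not corrected for room, and no enrichment was tested.

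Of 20 immediate early genes, 16 had a member (80%, 56.3 to 94.3). Their 37 members had median scores of 88 for HDAC3 and 226 for KLF4, and 30 of the 37 were in the highest 10% of HDAC3 scores. Besides those above, Ier5 had members scoring 170 and 107 for HDAC3 (KLF4 427 and 187). Dusp1, a phosphatase that switches off MAP kinases, had 4 downstream, with HDAC3 scores of 134, 119, 108 and 88 and KLF4 scores of 240, 273, 365 and 360. Fosl1, Jund, Btg2 and Zfp36 had none. Of the same 20 genes, 14 were nearest to an HDAC3 peak without KLF4, which is 70% against a background of 30.2%, and 14 to a KLF4 peak without HDAC3.

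Among 16 genes of epidermal growth factor receptor ligands and feedback, 12 had a member (75%). Epgn, the ligand epigen, had a pair 3620 and 1560 bp downstream with HDAC3 scores of 90 and 85. Tgfa, Lrig1 and Erbb2 had members with HDAC3 scores up to 88, 86 and 79 and KLF4 scores of 146, 117 and 301. Areg, Btc, Ereg and Hbegf, further ligands, also had members, with HDAC3 scores between 30 and 63. Egfr, Erbb3, Spry4 and Adam17 had none. The list was as often near HDAC3 peaks without KLF4 and near KLF4 peaks without HDAC3, 12 of 16 each.

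Of 21 genes of the spinous layer and Notch signalling, 15 had a member (71.4%), against 9 near an HDAC3 peak without KLF4 (42.9%). Notch2, a receptor, had the strongest, 12964 bp upstream, with an HDAC3 score of 156 and a KLF4 score of 117 (115 HDAC3, 54.3 KLF4 and 6 input tags). It was 1 of the tall peaks where HDAC3 tags exceeded KLF4 tags. Cebpb, a factor of early keratinocyte differentiation, had 4, with HDAC3 scores of 137, 89, 75 and 74 and KLF4 scores of 389, 297, 265 and 546. Hes1, a Notch target, had 3, with HDAC3 scores of 121, 50 and 47 and KLF4 scores of 229, 96 and 67. KLF4 peaks without HDAC3 were nearest to 12 of the 21 genes (57.1%). The ligand genes Jag1 and Jag2 and the Notch effector Rbpj had no member.

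Of 48 epidermal transcription factor genes, 34 had a member (70.8%), 34 had an HDAC3 peak without KLF4 and 37 a KLF4 peak without HDAC3. Prdm1 and Fosl2 led, then Grhl2, a regulator of epithelial junctions, with 153 and 391, and Elf3, an epithelial ETS factor, with 144 and 215. Klf4 itself had 3 members, 30545, 46039 and 5419 bp downstream, with HDAC3 scores of 127, 93 and 78 and KLF4 scores of 267, 155 and 282. Ovol1 had 1 with a KLF4 score of 639 and an HDAC3 score of 113. Grhl3, needed for the skin barrier, had 3 with HDAC3 scores of 90, 90 and 83. Trp63, the p63 gene of basal cells, had 1 of 36 and 68, and Zfp750 and Sox9 had none.

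Of 35 barrier lipid genes, 19 had a member (54.3%), 16 had an HDAC3 peak without KLF4 (45.7%) and 24 a KLF4 peak without HDAC3 (68.6%). The median log2 ratio of KLF4 to HDAC3 tags was 1.04, against 0.66 over all members. Sdr9c7 led by HDAC3 score with 159. Gltp, a glycolipid transfer protein, had 2 members 1150 and 4360 bp upstream with KLF4 scores of 622 and 590 and HDAC3 scores of 147 and 131. Pnpla1, an enzyme of acylceramide synthesis, had a pair of 107 and 92 for HDAC3 and 422 and 267 for KLF4. Elovl4, which lengthens very long fatty acids, had 4, the tallest 98 and 167. Alox12b and Elovl1 had none.

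The basal layer and hemidesmosome list had a member at 11 of 21 genes (52.4%), and its 13 members had a median log2 ratio of 0.23. After Cdh3, Krt14 (97 and 233), Plec, the plectin gene (95 and 228), and Itga3, an integrin (80 and 127), were highest, while Krt5, Itga6 and Itgb4 had none. Of 39 cornified envelope and late differentiation genes, 19 had a member (48.7%). Sprr4 led with 122 and 231, then Cnfn, cornifelin, with 117 and 563, Cdsn, corneodesmosin, with 93 and 171, and Ppl, periplakin, with 84 and 454 and 82 and 294. Members near Lor, the loricrin gene (23 and 65), and Ivl, involucrin (28 and 54), were low, and Tgm1, Tgm3 and the Sprr1 and Sprr2 genes of the list had none. HDAC3 peaks without KLF4 were nearest to 10 of the basal genes and 19 of the cornified genes, and KLF4 peaks without HDAC3 to 7 and 24.

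Among 35 junction genes, 16 had a member (45.7%). Below Cdh3 and Cdh1, Perp, a desmosomal protein, had 3 with HDAC3 scores of 100, 89 and 78, and Ctnnb1, beta-catenin, had a tallest of 93. Of 28 genes of keratinocyte inflammation and defence, 13 had a member (46.4%). Il1b, interleukin 1 beta, had 5, the tallest 36591 bp upstream with 151 and 336. Nfkbia, the NF-kB inhibitor, had 5 with HDAC3 scores from 60 to 112, Socs3, a cytokine signalling inhibitor, 5 from 34 to 93, and Irf1 a tallest of 92 and 255 with both peaks on the same base. For these 2 lists the shares near HDAC3 peaks without KLF4 were 48.6% and 53.6%, and near KLF4 peaks without HDAC3 54.3% and 53.6%.

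The lists for hair follicle placodes and for other cell types gave lower shares, all with intervals that contain 14.4%. Of 22 hair follicle placode genes, 5 had a member (22.7%, 7.82 to 45.4), with Ptch1 highest at 96 and 109, whereas 15 (68.2%) had an HDAC3 peak without KLF4 and 12 (54.5%) a KLF4 peak without HDAC3. The counts with a member were 2 of 11 for Langerhans and T cells, 2 of 16 for neurons, 1 of 10 for melanocytes, 1 of 13 for dermal fibroblasts and endothelium, 1 of 14 for muscle and 1 of 16 for liver. Their highest HDAC3 scores were 56 at Cd3e, 45 at Neurod1, 47 at Sox10, 77 at Pecam1, 28 at Myog and 37 at G6pc. Pecam1, an endothelial adhesion gene, had 5 members within 16.3 kb, all closer to it than to its neighbours Tex2 and Milr1. In the order of the counts above, HDAC3 peaks without KLF4 were nearest to 6, 9, 5, 6, 3 and 4 of these genes. The shares were 54.5%, 56.25%, 50%, 46.2%, 21.4% and 25%, against 30.2% of all protein-coding genes. KLF4 peaks without HDAC3 were nearest to 3, 1, 3, 3, 3 and 2. Those shares were 27.3%, 6.25%, 30%, 23.1%, 21.4% and 12.5%, against 24.1% of all protein-coding genes. None of the 8 genes of the HDAC3 corepressor complex had a member, which allows a share of up to 36.9%; 5 of the 8 have any sequence 1 to 50 kb outside genes that is nearest to them. The libraries are of bulk epidermis and measure binding, so the cells that gave a peak cannot be told from them.

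Small noncoding genes were near a few members. Of 1005 miRNA hairpins in the gene table, 20 lay within 5 kb of 19 of the 4594 members. A hairpin lay within 1 kb of 2 of those members. The share of other peaks near a hairpin was not counted, so these counts have no background and do not single out the members. The mature sequences of those best known are printed with the seed, bases 2 to 8, in capitals (RefSeq, GRCm38.p6), because 2 of them share it.
mmu-miR-193a-3p: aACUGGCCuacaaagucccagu
mmu-miR-193b-3p: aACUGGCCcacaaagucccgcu
mmu-miR-365-3p: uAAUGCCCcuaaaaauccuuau
mmu-miR-22-3p: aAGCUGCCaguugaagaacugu
mmu-let-7i-5p: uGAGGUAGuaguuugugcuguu

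The first 2 have the same seed and come from different chromosomes. The member near Mir193a lay 1277 bp from the hairpin, with an HDAC3 score of 46 and a KLF4 score of 206. A single member, with scores of 64 and 145 and with 41.6 HDAC3, 68.3 KLF4, and 4 and 8 input tags, lay 361 bp from the Mir365-1 hairpin and 4686 bp from Mir193b. The tallest of the 19 was near Mir22, 2426 bp from the hairpin, with scores of 109 and 204. Near Mirlet7i the scores were 40 and 81, at 2561 bp. Mir375, best known from pancreatic islets, had a member at 345 bp that was among the weaker, with 31 and 70.

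Long noncoding RNA genes covered 18.4% of the members (843; 17.2 to 19.5), against 15.2% (14.5 to 15.9) of the HDAC3 peaks without KLF4 at the same distances from protein-coding genes. Within 1 kb of an end of such a gene lay 6.42% of members and 4.89% of the peaks without KLF4.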

How the data were processed

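HDAC3 and KLF4 chromatin immunoprecipitation and an input library were measured in E18.5 dorsal epidermis, 1 library each. The authors' tools were bcl2fastq, STAR and HOMER with build GRCm38.p5, per the submitters' processing notes; their versions were not given in those sources. Peaks of 1 fixed width were called per library against the input, requiring 4-fold over input, per the file headers. The deposited lists give the tags as a signal, scaled to the input or normalised to a common depth, a score (the caller's tag number), a ratio (fold over input and over the 10 kb around), a p-value, and a focus value as a fraction. Here peaks were joined by centre distance and placed against GRCm38.p6 genes (49943 genes, 21887 protein-coding) with pandas 2.3.3 and numpy 2.4.6; intervals came from scipy 1.17.1 and plots from matplotlib 3.10.9. The code was tested on simulated data. An input of 0 is listed by the caller as 0.5.

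Named members are the 12 highest HDAC3 scores, the 8 highest KLF4 scores, the 8 best by summed rank and the 8 highest folds over at least 2 input tags. Named genes are the nearest of these, the 8 with the most members (ties by summed HDAC3 score), and up to 4 per list; other genes were named after their values were seen. A few genes and 1 of these members are not reported here. The members and the 17 gene lists were chosen with earlier results of these data known. No genome of the build was used, so the sequences of the members with the best ranks, planned to be shown, were replaced by members in RefSeq start windows. No test was made between groups.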

Additional observations from a re-analysis of the deposited data

How the results depend on the processing

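With both peaks at least 8-fold over input, 1671 members were left, 32.0% of the shared peaks. Their median scores were 53 for HDAC3 and 126 for KLF4, the centres lay a median of 28 bp apart, and 49.7% were in the highest 10% of HDAC3 scores. They were nearest to 6.43% of protein-coding genes, of which 24.9% had a peak of either factor at an end, and to 94 list genes. With the higher-scored 50% of each list, the corresponding values were 32.1% of shared peaks, scores of 52 and 132, 28 bp between centres, 49.1% in the highest 10%, 10.4% of genes and 34.8% with a peak at an end, with a median gene distance of 11587 bp. Under both of these settings, peaks at gene ends were counted only among the peaks kept. Their shares therefore cannot be set against the share of all protein-coding genes given above. With centres at most 50 bp apart, the scores were 47 and 107, the centre distance 20 bp, the highest 10% 40.9% and the genes 10.8%; at 92 bp they were 46 and 103, 27 bp, 38.3% and 13.0%. With an inner limit of 5 kb, the share of shared peaks was 23.3%, the median gene distance 17151 bp and the genes 11.1%. Outer limits of 25 and 100 kb gave 23.3% and 36.5% of shared peaks, 8382 and 15875 bp, and 12.2% and 15.6% of genes. Counting every annotated gene, and not protein-coding genes alone, gave a KLF4 median of 94, a gene distance of 8857 bp, 34.2% in the highest 10%, 7.13% of genes, 36.7% of them with a peak at an end, and 105 list genes. These moves follow from which peaks or genes each setting keeps. Of 136 counts of single lists under these settings, 102 were within 1.5 times the count reported and 34 were not. With 8-fold enrichment the genes with a member fell from 19 to 8 for cornified, 11 to 7 for basal, 16 to 9 for junction, 19 to 10 for barrier lipid, 34 to 21 for transcription factor, 13 to 6 for inflammation, 12 to 7 for epidermal growth factor and 5 to 3 for placode genes. Counting every gene, they were 7, 10, 12, 18 and 8 for basal, junction, barrier lipid, transcription factor and inflammation genes. An inner limit of 5 kb gave 12 cornified, 12 barrier lipid and 3 placode genes, and an outer limit of 25 kb 22 transcription factor genes. The other 17 were counts of at most 2 genes. The counts for immediate early and spinous genes stayed within 1.5 times under every setting run.

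No paired analysis was possible because each antibody has 1 library and no test was made; for the same reason no library was left out. The wider motif window was not run, since no genome was used. Input depth limits the folds, and a peak below the calling limit in 1 library counts as absent there.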
